A study of Manihot esculenta with 9 samples.

Results

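The starch and trehalose genes described here are the 65 genes, of 33033 in the deposited expression table of cassava (*Manihot esculenta*), whose description contains a term for starch, amylase, isoamylase, glucan phosphorylase, ADP-glucose pyrophosphorylase, disproportionating enzyme, glucan water dikinase or trehalose. Only the wording of the description chose them and the rule holds no measured value, but earlier results of these data were known when the members were chosen. The table also names the nearest Arabidopsis gene of each, and the 65 genes have 39 nearest Arabidopsis genes between them, whose symbols are used below. Wild-type seedlings of cassava TM60444 were grown from stem cuttings for 60 days on MS medium, a defined salt medium, in sterile bottles. The MS control seedlings stayed in MS medium alone. In the other groups, abscisic acid (ABA, the hormone of plant water stress) was added to the medium to 50 μmol/L, or the polymer PEG6000 (polyethylene glycol, PEG, which withdraws water) to 7%, and mature leaves were taken after 48 h. Each group has 3 RNA-seq libraries. The sources used here do not say whether each library came from a separate plant or pool, so the p-values measure the spread between these libraries, which may be technical.

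Starch is the glucose store of the plastid. ADP-glucose pyrophosphorylase makes the glucosyl donor, starch synthases extend the chains, branching enzymes add branch points and isoamylases trim them, while α- and β-amylases, phosphorylases and disproportionating enzymes take the granule apart, in leaves mostly at night. Trehalose-6-phosphate is a sugar signal present in trace amounts, made by trehalose-6-phosphate synthase (TPS) and removed by trehalose-6-phosphate phosphatase, and in Arabidopsis it follows sucrose and slows the breakdown of leaf starch. In Arabidopsis, a β-amylase named BAM1 degrades leaf starch under osmotic stress and in guard cells, and BAM3 is the main β-amylase of mesophyll starch breakdown at night.

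The libraries held 13923803 to 17108746 counts. Levels below are the authors' FPKM values (fragments per kilobase of transcript and library size, a level per length), and each list of levels gives replicates 1, 2 and 3. Differences are log2 fold changes with their standard errors (SE) from edgeR's quasi-likelihood test on the read counts, and a gene is said to have risen or fallen where its Benjamini-Hochberg adjusted p over the 23984 genes tested was under 0.05. Log2 fold changes use TMM scaling between libraries and can differ slightly from ratios of FPKM. The leaf label was matched by the leaf photosynthesis list of 29 genes (light-harvesting and small Rubisco subunit genes), whose summed level was 4580 to 5170 FPKM in MS control leaves, 1420 to 1520 in ABA leaves and 10400 to 10800 in PEG leaves. Of the 27 photosynthesis genes tested, 22 fell under ABA, and 22 rose and 1 fell under PEG. The list of late embryogenesis abundant (LEA) and dehydrin genes, known for their response to ABA, had 48 of 82 genes tested, of which 17 rose and 16 fell under ABA and 8 rose and 33 fell under PEG. Its summed level was 1460 to 1860 FPKM in MS control leaves, 2280 to 2350 in ABA leaves and 1090 in PEG leaves in each library, and 14 of the 82 genes had no read in any library. Water loss usually raises genes of this list in plants and lowers photosynthesis genes, so the PEG libraries went against the usual direction in both. The group labels could not be checked against an independent value, and PEG and MS control below mean the libraries so labelled. Among 47 tested of 50 cyclin genes, 26 rose and 8 fell under ABA, and 37 rose and 7 fell under PEG, with summed levels of 166 to 172 FPKM in MS control leaves, 195 to 200 in ABA leaves and 315 to 321 in PEG leaves. One gene without a description, Manes.15G039800, differed widely within groups, with 17.0, 11700 and 11900 FPKM in the MS control and 283, 5050 and 5750 under PEG, against 2730, 2720 and 2740 under ABA. The part of these shifts in the results below was not tested, and in whole leaves fewer cells of a type and less RNA per cell cannot be told apart.

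Most starch and trehalose genes were detected in leaf. Reads were found in every library for 62 of the 65 genes, 55 reached a mean of 1 FPKM in at least 1 group, 40 reached 10 FPKM and 6 reached 100 FPKM. The filter on low counts kept 61, and the other 4 had group means of at most 0.435 FPKM. Under ABA, 22 of the 61 rose and 17 fell, where 32.9% of all genes tested rose and 33.4% fell. At least 2-fold changes were seen in 5 that rose and 4 that fell, against 10.6% and 8.79% of all genes. Under PEG, 26 rose and 22 fell, against backgrounds of 35.6% and 35.1%, and 4 rose and 8 fell at least 2-fold, against 12.4% and 9.72%. The median log2 fold change of the members was 0.02 under ABA and 0.04 under PEG, and that of all genes tested was 0.0 in both. Without scaling beyond library size the median of all genes moved by -0.07 under ABA and 0.14 under PEG, the share of rises among all calls went from 49.6% to 43.6% under ABA and from 50.4% to 61.0% under PEG, and the members then counted 20 risen and 19 fallen under ABA and 30 risen and 20 fallen under PEG. Both comparisons use the same 3 MS control libraries. Counts by role below rest on few genes and are to be read beside these shares of all genes tested.

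**Figure D1:**
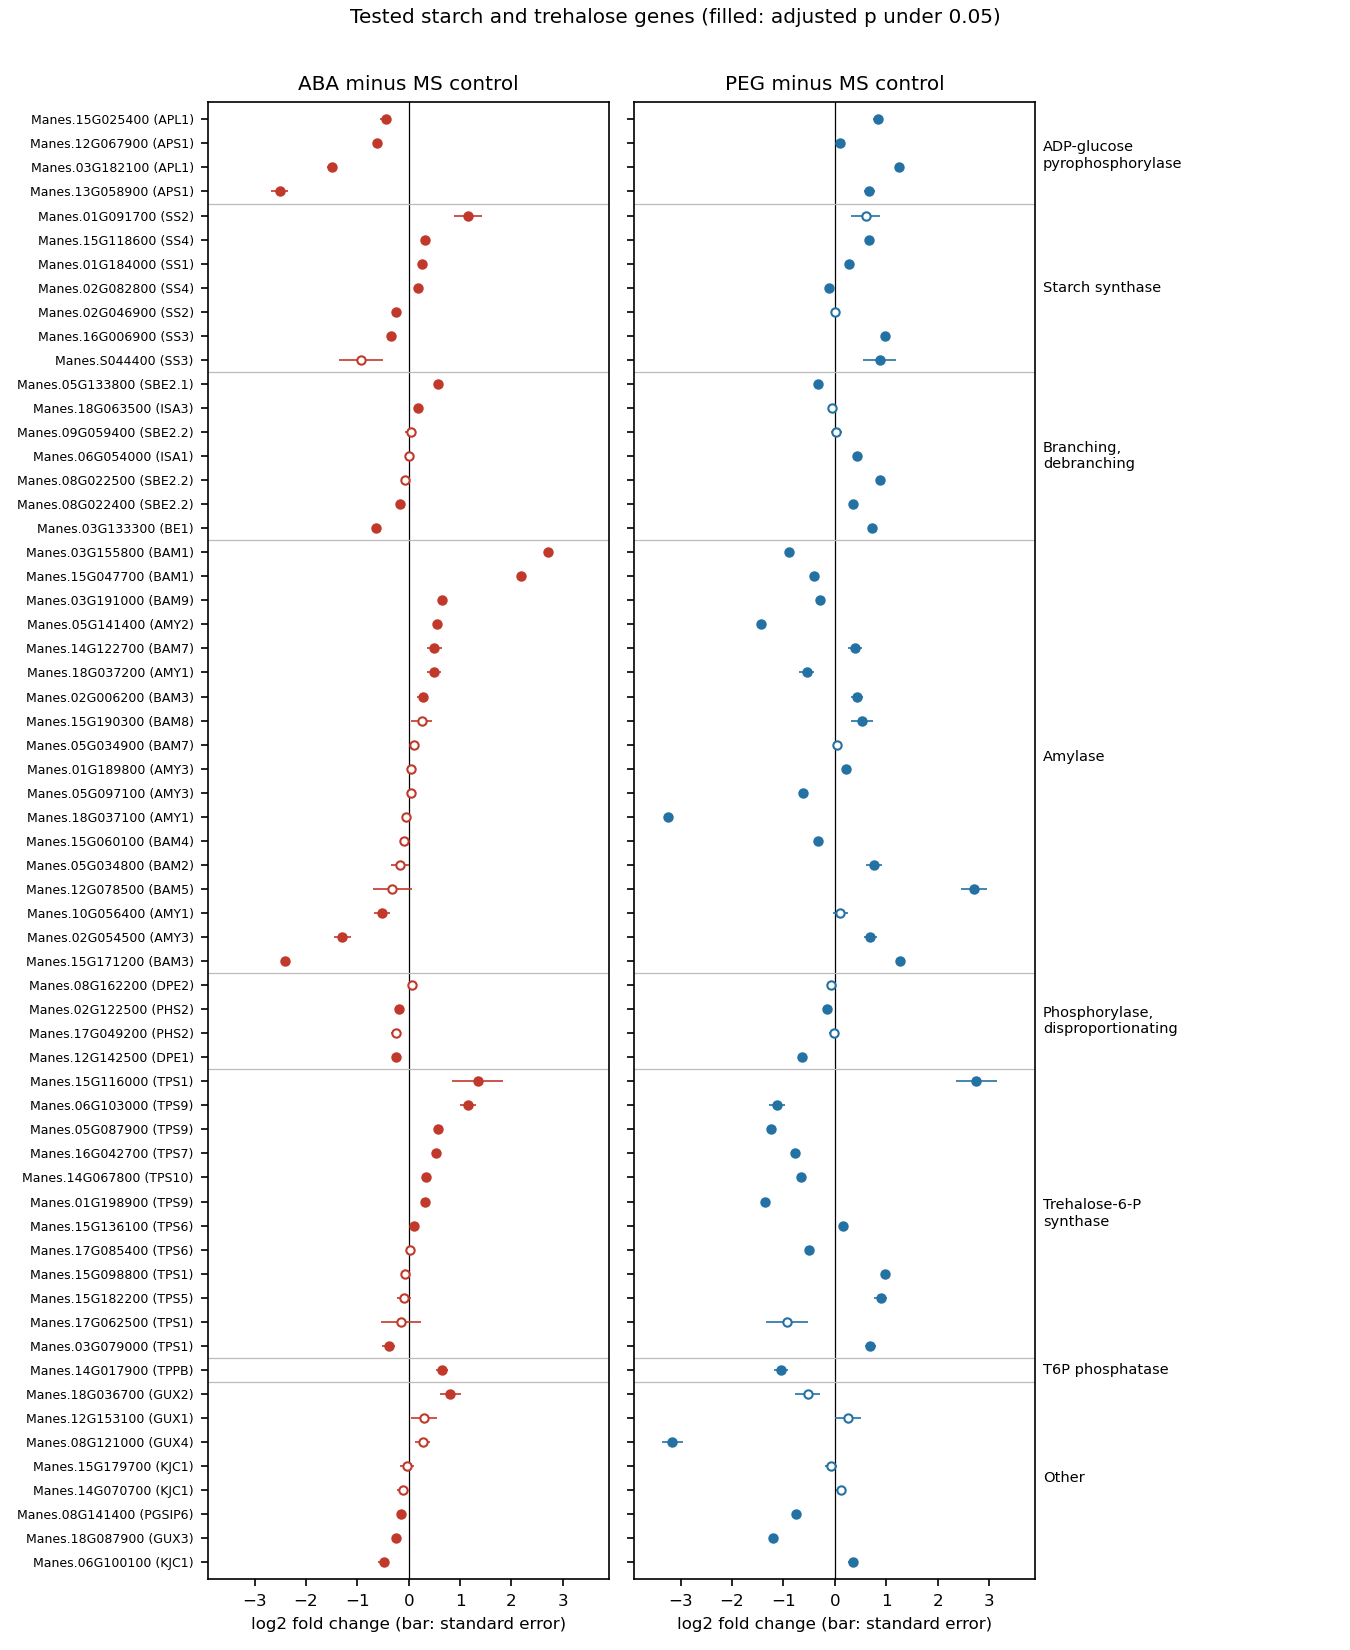
Log2 fold change of each of the 61 tested genes against the MS control, under ABA (left) and under PEG (right), grouped by enzyme role. Bars are standard errors and filled points passed the test. The values run from -2.51 to 2.71 under ABA and from -3.24 to 2.75 under PEG, with the 4 ADP-glucose pyrophosphorylase genes all below 0 under ABA and all above 0 under PEG.

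The members for ADP-glucose pyrophosphorylase, the enzyme of the committed step of starch synthesis, were lower under ABA and higher under PEG, while a further large-subunit gene outside the search terms, the APL3 gene Manes.11G085500, rose under ABA by 0.72 (SE 0.03, adjusted p = 6.45e-10) and fell under PEG by 1.15 (SE 0.03, adjusted p = 1.13e-11). All 4 tested members fell under ABA and all 4 rose under PEG, with median log2 fold changes of -1.06 and 0.76. The enzyme pairs small catalytic subunits with large regulatory subunits, and APL1 is the main large subunit of the Arabidopsis leaf. Manes.03G182100, an APL1 copy on chromosome 3 (26947144 to 26950742 in the table's coordinates, cassava genome v6.1), held 13.8, 15.1 and 16.2 FPKM in MS control leaves, 5.38, 5.45 and 4.42 in ABA leaves and 39.8, 38.4 and 39.5 in PEG leaves. The 3 groups did not overlap. It fell under ABA with a log2 fold change of -1.50 (SE 0.08, adjusted p = 1.74e-08) and rose under PEG by 1.25 (SE 0.08, adjusted p = 3.28e-08). The other APL1 copy, Manes.15G025400, lay at 5.56, 7.19 and 5.67 FPKM in MS control leaves, 4.34, 4.20 and 4.32 in ABA leaves and 12.9, 11.6 and 11.7 in PEG leaves. It changed less, by -0.45 (SE 0.11, adjusted p = 0.00296) and 0.84 (SE 0.10, adjusted p = 1.36e-05), again without overlap of the groups.

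The small subunit was carried mainly by 1 of its copies. Manes.12G067900, annotated with Arabidopsis APS1, had 53.9, 49.9 and 50.6 FPKM in MS control leaves, 31.3, 31.4 and 34.0 in ABA leaves and 61.0, 59.7 and 61.7 in PEG leaves, the highest of the 5 members. It fell under ABA (log2 fold change -0.61, SE 0.04, adjusted p = 1.5e-07), and its small rise under PEG of 0.11 (SE 0.04, adjusted p = 0.0374) was no longer past the threshold in 7 of the alternatives, among them leaving out MS control replicate 2 (adjusted p = 0.114), MS control replicate 3 (0.0998) or any PEG library (0.0504 to 0.0971). The second APS1 copy, Manes.13G058900, was low, at 3.12, 3.28 and 3.27 FPKM in MS control leaves, 0.642, 0.439 and 0.533 in ABA leaves and 5.88, 5.88 and 5.15 in PEG leaves. Its fall under ABA was the largest among the members (log2 fold change -2.51, SE 0.16, adjusted p = 5.95e-08, on 275 reads in the MS control and 46 under ABA), and it rose under PEG by 0.67 (SE 0.11, adjusted p = 0.000179). A further gene, Manes.05G208000, annotated as the second small subunit, had at most 0.290 FPKM in any library and was not tested. The summed level of the 5 genes was 75.6 to 76.5 FPKM in MS control leaves, 41.6 to 43.6 in ABA leaves and 116 to 120 in PEG leaves. With the APL3 gene added, the means were 128 ± 0.72 FPKM for the MS control, 124 ± 0.17 for ABA and 144 ± 2.58 for PEG (SD, n = 3). Between the treatments directly, all 4 tested genes were higher under PEG than under ABA, by log2 fold changes of 0.72 to 3.19.

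Starch synthases showed smaller shifts that differed between genes. Of 7 genes tested, 4 rose and 2 fell under ABA, and 4 rose and 1 fell under PEG. Manes.02G082800, a copy of SS4, which in Arabidopsis starts new granules, had the highest mean over the 9 libraries, with 22.0, 21.7 and 21.1 FPKM in MS control leaves, 23.5, 24.3 and 22.6 in ABA leaves and 21.5, 22.7 and 21.4 in PEG leaves. It rose slightly under ABA (log2 fold change 0.18, SE 0.04, adjusted p = 0.00298). Under PEG its FPKM overlapped the MS control, and the log2 fold change of -0.12 (SE 0.04, adjusted p = 0.0334) passed the threshold but was 0.02 without scaling beyond library size and lost the call in 6 other alternatives, among them leaving out MS control replicate 1 (adjusted p = 0.0759) or 2 (0.0719) or PEG replicate 1 (0.1) or 3 (0.107). The other SS4 copy, Manes.15G118600, rose by 0.32 under ABA (SE 0.06, adjusted p = 0.000529) and by 0.67 under PEG (SE 0.06, adjusted p = 9.7e-07).

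SS3, a chain-elongating synthase, showed the largest shift among synthases above 10 FPKM. Manes.16G006900 held 12.9, 12.3 and 12.9 FPKM in MS control leaves, 10, 9.04 and 9.58 in ABA leaves and 27.5, 26.8 and 27.7 in PEG leaves, with no overlap between groups. It fell under ABA by 0.35 on the log2 scale (SE 0.04, adjusted p = 2.81e-05) and rose under PEG by 0.97 (SE 0.04, adjusted p = 2.63e-09). SS1, which extends short chains, rose under both treatments, by 0.26 (SE 0.07, adjusted p = 0.00954) under ABA and 0.28 (SE 0.07, adjusted p = 0.00475) under PEG from a level of 9.05 ± 0.11 FPKM (SD, n = 3). The PEG call of SS1 (Manes.01G184000) was lost without the 2 libraries low in Manes.15G039800 (adjusted p = 0.0563), an alternative chosen after seeing the data. The 2 SS2 copies, which extend intermediate chains, were called in opposite directions under ABA. Manes.02G046900 fell by 0.24 on the log2 scale (SE 0.07, adjusted p = 0.00605) from 15.2 ± 1.23 FPKM (SD, n = 3), and Manes.01G091700 rose by 1.15 (SE 0.27, adjusted p = 0.00266) but had only 43 reads in the MS control and 92 under ABA. Neither passed the test under PEG, at 0.01 (adjusted p = 0.89) and 0.60 (adjusted p = 0.0721). The second SS3 copy, Manes.S044400, stayed under 0.52 FPKM in all libraries, and its rise under PEG was lost when any 1 of 4 libraries was left out (MS control replicates 2 and 3, PEG replicates 2 and 3), with an adjusted p of up to 0.118 over the alternatives.

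Of the 7 branching and debranching genes tested, 4 rose and 1 fell under PEG, and 2 rose and 2 fell under ABA. Over all genes tested, 35.6% rose and 35.1% fell under PEG, and 32.9% rose and 33.4% fell under ABA. The leading member was Manes.18G063500, annotated as ISA3, an isoamylase that in Arabidopsis debranches starch during breakdown, with 73.6, 71.1 and 74.2 FPKM in MS control leaves, 79.3, 80.9 and 79.2 in ABA leaves and 75.8, 78.1 and 76.2 in PEG leaves. It rose under ABA by 0.19 (SE 0.03, adjusted p = 9.76e-05). Under PEG the value was -0.06 (SE 0.03, adjusted p = 0.077), and 0.07 without scaling beyond library size. ISA1, the isoamylase of starch synthesis (Manes.06G054000), rose under PEG by 0.43 (SE 0.04, adjusted p = 3.24e-06) and had a log2 fold change of 0.0 under ABA.

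Among the branching enzymes, Manes.05G133800 was higher under ABA and lower under PEG, with 31.3, 32.7 and 32.4 FPKM in MS control leaves, 45.0, 46.4 and 45.4 in ABA leaves and 28.4, 28.4 and 27.2 in PEG leaves. The groups were apart, with a rise of 0.57 under ABA (SE 0.03, adjusted p = 3.67e-08) and a fall of 0.33 under PEG (SE 0.03, adjusted p = 3.64e-06). The neighbouring pair on chromosome 8, which shares 1 nearest Arabidopsis gene, behaved otherwise. Manes.08G022400 lay at 64.4, 66.2 and 67.0 FPKM in MS control leaves, 53.0, 59.4 and 55.8 in ABA leaves and 94.5, 88.8 and 93.2 in PEG leaves, falling by 0.17 under ABA (SE 0.04, adjusted p = 0.00426) and rising by 0.35 under PEG (SE 0.04, adjusted p = 1.58e-05). Its neighbour Manes.08G022500 rose under PEG by 0.87 (SE 0.06, adjusted p = 1.65e-07) and had -0.08 under ABA (adjusted p = 0.276). Another gene with that Arabidopsis match, Manes.09G059400, passed neither test, at 0.04 (adjusted p = 0.743) and 0.03 (adjusted p = 0.796) and 3.37 ± 0.19 FPKM in the MS control (SD, n = 3). The sources used here do not say how reads matching both copies were counted, so the split between such copies is uncertain. Manes.03G133300 is described as an α-amylase family protein, but its nearest Arabidopsis gene is BE1, a branching-enzyme-like protein, and it is grouped here. Its levels were 12.2, 10 and 11.6 FPKM in MS control leaves, 6.87, 7.12 and 6.84 in ABA leaves and 21.1, 20.8 and 19.2 in PEG leaves. It fell under ABA by 0.64 (SE 0.07, adjusted p = 1.2e-05) and rose under PEG by 0.72 (SE 0.07, adjusted p = 2.02e-06), with no overlap.

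The β-amylases, which release maltose from chain ends, held the largest rise of any member under ABA. Of 11 genes, all tested, 5 rose and 1 fell under ABA, and 6 rose and 4 fell under PEG. Manes.03G155800, a BAM1 copy on chromosome 3 (25139524 to 25142085), had 120, 120 and 112 FPKM in MS control leaves, 734, 738 and 725 in ABA leaves and 70.2, 70.2 and 67.9 in PEG leaves. Every ABA library stood far above the MS control libraries, and every PEG library stood below them. The log2 fold change was 2.71 under ABA (SE 0.03, adjusted p = 5.53e-14) and -0.89 under PEG (SE 0.03, adjusted p = 1.2e-10). The second BAM1 copy, Manes.15G047700 on chromosome 15, showed the same order at lower levels, with 18.0, 15.9 and 16.7 FPKM in MS control leaves, 71.4, 76.7 and 72.1 in ABA leaves and 14.1, 13.3 and 14.3 in PEG leaves. It rose by 2.18 (SE 0.05, adjusted p = 1.12e-11) and fell by 0.41 (SE 0.05, adjusted p = 1.84e-05).

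BAM3 took the other course. Manes.15G171200, described as a chloroplast β-amylase, lay at 18.1, 15.6 and 16.7 FPKM in MS control leaves, 2.99, 2.98 and 3.17 in ABA leaves and 46.1, 42.6 and 45.0 in PEG leaves. The groups were widely apart, and it fell under ABA by 2.40 (SE 0.07, adjusted p = 4.62e-11) and rose under PEG by 1.27 (SE 0.06, adjusted p = 2.21e-09). The other BAM3 copy, Manes.02G006200, was lower and moved little. It rose under PEG by 0.43 (SE 0.11, adjusted p = 0.0035), and under ABA its value of 0.27 (SE 0.11, adjusted p = 0.0459) came from overlapping FPKM values, 7.89, 7.52 and 6 in the MS control and 8.07, 8.90 and 7.65 under ABA. That ABA call did not hold in 9 alternatives, including leaving out MS control replicate 3, ABA replicate 1 or 2, or PEG replicate 1 or 2, with an adjusted p of up to 0.176.

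BAM9 and BAM4 lack catalytic activity in Arabidopsis, and BAM9 made up the largest share of the β-amylase transcripts in MS control and PEG leaves. Manes.03G191000, described in the table as β-amylase 3 but with BAM9 as its nearest Arabidopsis gene, had 154, 152 and 154 FPKM in the MS control, 229 in each ABA library and 142, 139 and 133 under PEG. It rose by 0.64 under ABA (SE 0.03, adjusted p = 1.58e-09) and fell by 0.29 under PEG (SE 0.03, adjusted p = 1.37e-06). BAM4 (Manes.15G060100) fell under PEG by 0.32 (SE 0.05, adjusted p = 0.000116) from 29.5 ± 0.38 FPKM (SD, n = 3) and had -0.09 under ABA (adjusted p = 0.134). BAM9 carried 42.1% of the summed β-amylase FPKM in MS control leaves, 20.8% in ABA leaves and 40.9% in PEG leaves, while Manes.03G155800 carried 32.1%, 66.6% and 20.6%. BAM4 carried 8.08%, 2.41% and 7.69%. BAM3 copy Manes.15G171200 went from 4.61% in the MS control to 0.277% under ABA and 13.3% under PEG.

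**Figure D2:**
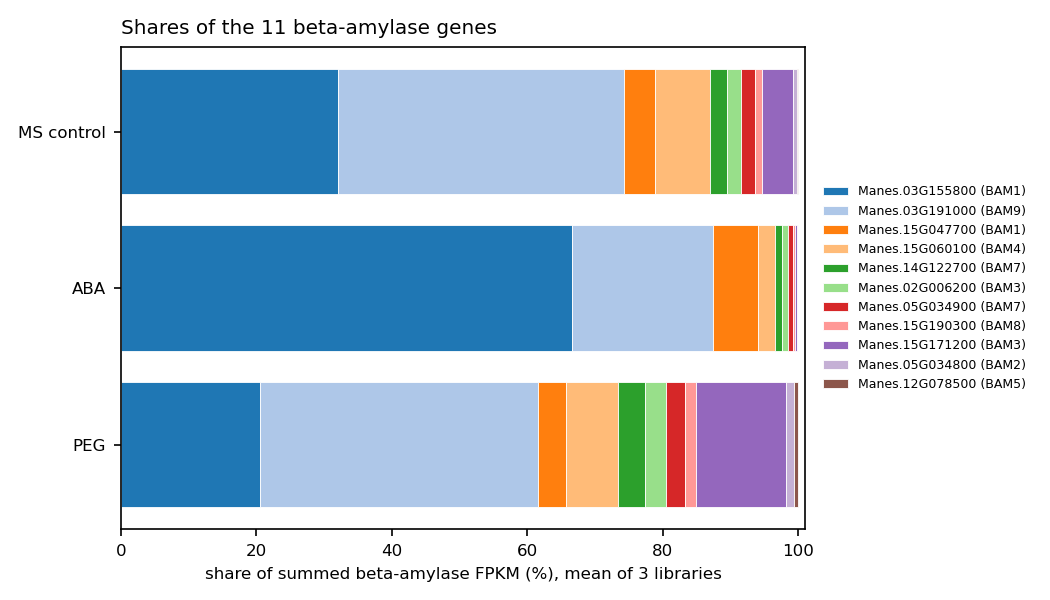
Share of each of the 11 β-amylase genes in their summed FPKM, in percent, as the mean of 3 libraries per group. The BAM1 copy Manes.03G155800 takes 66.6% under ABA against 32.1% in the MS control, and BAM9 takes 42.1% in the MS control and 40.9% under PEG.

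The remaining β-amylase genes were at lower levels. BAM2, BAM5 and BAM7 or BAM8 copies lay below 16 FPKM in every library, and BAM7 and BAM8 are nuclear proteins with a DNA-binding domain in Arabidopsis rather than starch-degrading enzymes. BAM5 (Manes.12G078500), a cytosolic enzyme in Arabidopsis, rose under PEG by 2.71 (SE 0.25, adjusted p = 1.35e-06), from 0.320, 0.150 and 0.300 FPKM to 1.66, 2.06 and 1.86, on 26 and 208 reads. The PEG libraries were all above the MS control, but the level stayed low. BAM2 (Manes.05G034800) rose under PEG by 0.76 (SE 0.16, adjusted p = 0.00108). Of the BAM7 copies, Manes.14G122700 rose by 0.50 under ABA (SE 0.14, adjusted p = 0.00702) and 0.39 under PEG (SE 0.14, adjusted p = 0.0219), the latter lost without MS control replicate 1 or 3 or PEG replicate 1 (adjusted p up to 0.197 over the alternatives), and Manes.05G034900 passed neither test, at 0.11 and 0.04. BAM8 (Manes.15G190300) rose under PEG by 0.53 (SE 0.21, adjusted p = 0.04), a call lost in 7 alternatives, among them without any 1 of the PEG libraries or without ABA replicate 1 or 2 (adjusted p up to 0.0825).

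**Figure D3:**
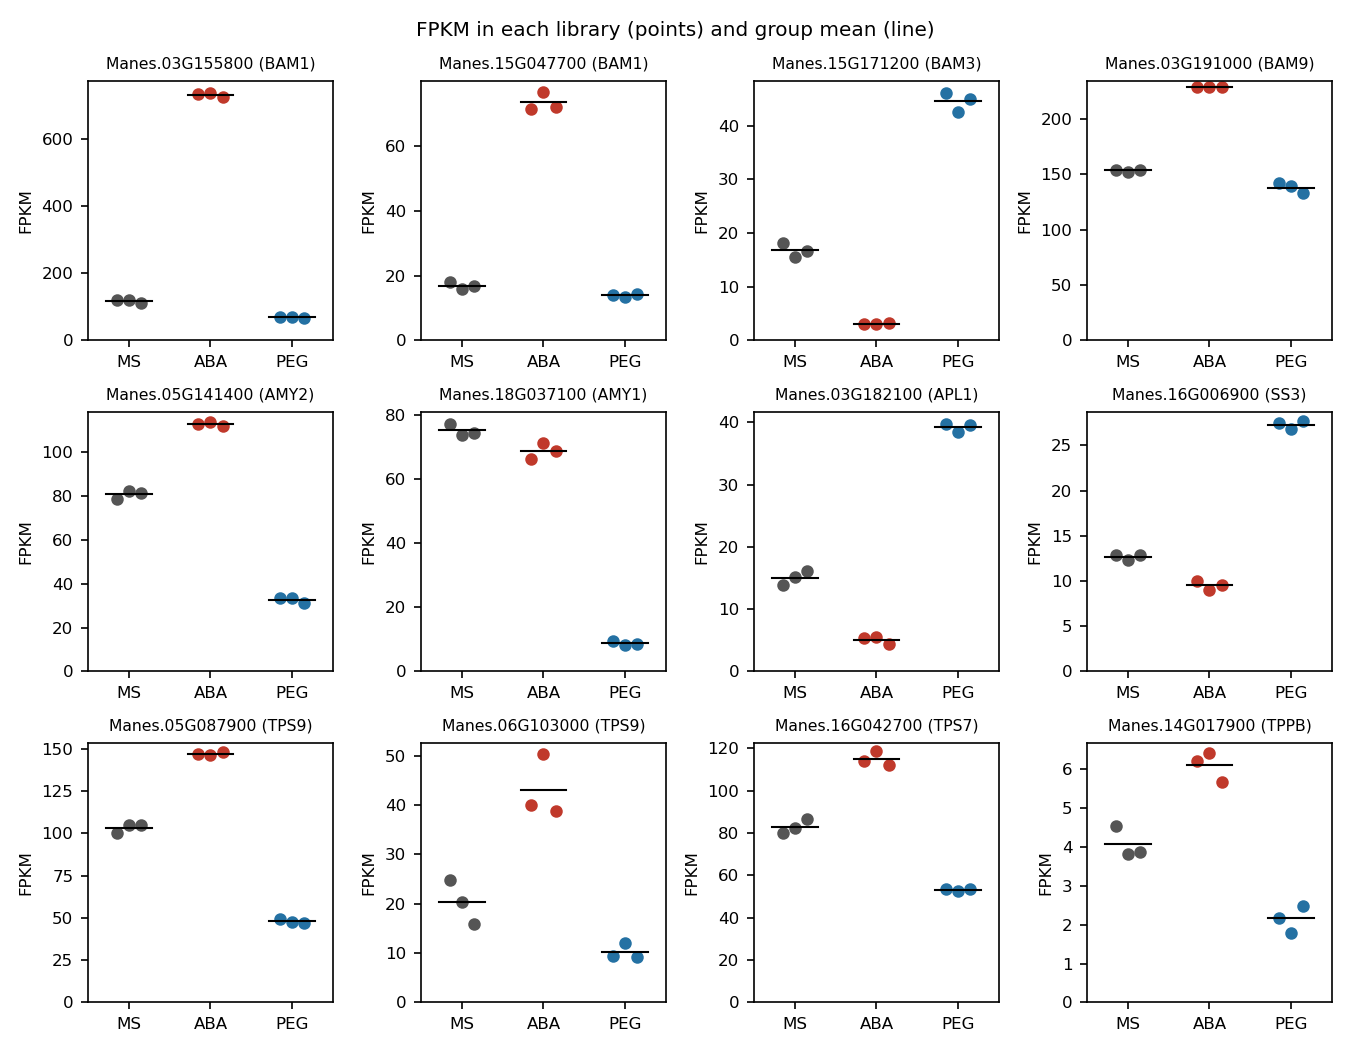
FPKM of 12 starch and trehalose genes in each library (points), with the group mean as a line. The BAM1 copy Manes.03G155800 lies at 725 to 738 under ABA against 112 to 120 in the MS control, the BAM3 copy Manes.15G171200 lies lowest under ABA (2.98 to 3.17) and highest under PEG (42.6 to 46.1), and the α-amylase Manes.18G037100 lies at 8.11 to 9.54 under PEG against 73.8 to 77.2 in the MS control.

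The α-amylases, which cut within chains, were lower under PEG in 4 of 7 tested genes and higher in 2, while under ABA 2 rose and 2 fell. The largest fall of any member was that of Manes.18G037100, a copy of AMY1, the secreted α-amylase of Arabidopsis. It had 77.2, 73.8 and 74.4 FPKM in MS control leaves, 66.1, 71.3 and 68.8 in ABA leaves and 9.54, 8.11 and 8.45 in PEG leaves. Every PEG library was far below the rest, and the log2 fold change was -3.24 (SE 0.06, adjusted p = 1.24e-12), against -0.06 (SE 0.05, adjusted p = 0.294) under ABA. Its neighbour on chromosome 18, Manes.18G037200, also fell under PEG, by 0.55 on the log2 scale (SE 0.15, adjusted p = 0.00532), and rose under ABA by 0.49 (SE 0.14, adjusted p = 0.00757) at 2.55 ± 0.12 FPKM in the MS control (SD, n = 3), and reads shared between these neighbours are again uncertain. The third AMY1 copy tested, Manes.10G056400, fell under ABA by 0.52 (SE 0.15, adjusted p = 0.00935) and had 0.11 under PEG (adjusted p = 0.508). A further copy, Manes.12G130900, was not tested, with 11 reads in the MS control group, 3 in the ABA group and 6 in the PEG group.

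AMY2, thought to be cytosolic in Arabidopsis, moved both ways. Manes.05G141400 lay at 78.7, 82.5 and 81.4 FPKM in MS control leaves, 113, 114 and 112 in ABA leaves and 33.3, 33.4 and 31.3 in PEG leaves. The 3 groups were well apart, with a rise of 0.55 under ABA (SE 0.03, adjusted p = 5.46e-08) and a fall of 1.44 under PEG (SE 0.04, adjusted p = 1.28e-11). AMY3 is the plastid α-amylase, and its 3 copies differed. The most abundant, Manes.05G097100, fell under PEG by 0.62 (SE 0.02, adjusted p = 4.97e-10) from 103 ± 1.34 FPKM (SD, n = 3) to 73.8 ± 1.26 and had 0.05 under ABA (adjusted p = 0.0817). Manes.01G189800 rose under PEG by 0.22 (SE 0.04, adjusted p = 0.000992). Manes.02G054500, at 3.17, 3.51 and 2.72 FPKM in MS control leaves, 0.943, 1.43 and 1.28 in ABA leaves and 5.36, 5.93 and 5.30 in PEG leaves, fell under ABA by 1.29 (SE 0.16, adjusted p = 2.08e-05) and rose under PEG by 0.69 (SE 0.13, adjusted p = 0.000598).

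The members for phosphorylase and disproportionating enzymes had log2 fold changes between -0.25 and 0.07 under ABA and between -0.63 and -0.01 under PEG, and the plastid phosphorylase PHS1 is not among them by its description. Of the 4 genes, 2 fell under ABA and 2 fell under PEG, and the rest did not pass the test. DPE2, the cytosolic enzyme that takes up maltose carbon, was the most abundant. Manes.08G162200 held 38.5, 37.8 and 37.9 FPKM in MS control leaves, 37.9, 39.5 and 37.3 in ABA leaves and 40.9, 38.4 and 39.4 in PEG leaves, so the groups overlapped. Its log2 fold changes were 0.07 under ABA (SE 0.03, adjusted p = 0.0867) and -0.08 under PEG (SE 0.03, adjusted p = 0.0584), and with DESeq2 size factors both passed the threshold (adjusted p = 0.0288 and 0.0452), while without scaling beyond library size the PEG value was 0.06. DPE1 (Manes.12G142500), the plastid enzyme acting on short glucans, fell by 0.25 under ABA (SE 0.05, adjusted p = 0.000589) and by 0.63 under PEG (SE 0.05, adjusted p = 2.27e-07), from 24.0 ± 0.98 FPKM (SD, n = 3). PHS2, the cytosolic phosphorylase (Manes.02G122500), fell by 0.18 under ABA (SE 0.03, adjusted p = 0.000127), and its fall of 0.15 under PEG (SE 0.03, adjusted p = 0.00067) became -0.01 (adjusted p = 0.73) without scaling beyond library size. The second PHS2 copy, Manes.17G049200, had -0.24 (adjusted p = 0.0585) and -0.01 (adjusted p = 0.944).

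The trehalose-6-phosphate synthase genes belong to 2 classes, whose difference was not tested. Class II genes (TPS5 to TPS10 here), whose proteins have no or little synthase activity in Arabidopsis, rose in 6 of 8 under ABA, where the rest had 0.02 and -0.09 and did not pass the test, and 2 rose and 6 fell under PEG, with medians of 0.32 and -0.72. Of the 4 copies of TPS1, the active synthase of Arabidopsis, 1 rose and 1 fell under ABA, and 3 rose under PEG. Without scaling beyond library size the ABA rise of the TPS6 copy Manes.15G136100 (0.10 on the log2 scale, adjusted p = 0.0114) was 0.04 (adjusted p = 0.281).

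All 3 TPS9 copies rose under ABA and fell under PEG. Manes.05G087900 had 100, 105 and 105 FPKM in MS control leaves, 147, 146 and 148 in ABA leaves and 49.6, 47.4 and 47.2 in PEG leaves, with log2 fold changes of 0.57 (SE 0.03, adjusted p = 1.04e-08) and -1.24 (SE 0.03, adjusted p = 1.17e-11). Manes.01G198900 had 38.3, 37.6 and 38.7 FPKM in MS control leaves, 45.9, 44.8 and 45.5 in ABA leaves and 16.2, 16.4 and 16.4 in PEG leaves, with 0.31 (SE 0.03, adjusted p = 1.79e-06) and -1.36 (SE 0.03, adjusted p = 5.2e-12). Replicates of both were tight and their groups apart. Manes.06G103000 was more variable, at 24.8, 20.3 and 15.8 FPKM in MS control leaves, 39.9, 50.4 and 38.8 in ABA leaves and 9.34, 12.0 and 9.26 in PEG leaves, still without overlap, and its log2 fold changes were 1.15 (SE 0.16, adjusted p = 4.52e-05) and -1.12 (SE 0.16, adjusted p = 5.11e-05).

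TPS7 and TPS10 followed the same order of groups. The TPS7 gene Manes.16G042700 lay at 80.0, 82.5 and 86.7 FPKM in MS control leaves, 114, 119 and 112 in ABA leaves and 53.4, 52.5 and 53.4 in PEG leaves, with 0.53 (SE 0.03, adjusted p = 7.33e-08) and -0.78 (SE 0.03, adjusted p = 2.21e-09). The TPS10 gene Manes.14G067800 lay at 22.7, 23.4 and 23.5 FPKM, then 26.7, 28.5 and 28.4 under ABA and 15, 17.1 and 16.3 under PEG, with 0.33 (SE 0.05, adjusted p = 8.66e-05) and -0.66 (SE 0.05, adjusted p = 1.94e-07). For both genes the 3 groups were apart. The TPS6 copies differed under PEG, where Manes.17G085400 fell by 0.50 (SE 0.03, adjusted p = 1.9e-08) from 95.7 ± 1.87 FPKM (SD, n = 3) and Manes.15G136100 rose by 0.15 (SE 0.03, adjusted p = 0.00109) from 40.7 ± 0.67. TPS5 (Manes.15G182200) rose under PEG by 0.89 (SE 0.13, adjusted p = 6.13e-05), at 1.70 ± 0.06 FPKM in the MS control (SD, n = 3).

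The TPS1 copies were at much lower levels than the class II genes, with summed levels of 7.54 to 8.40 FPKM against 403 to 408 FPKM in the MS control. The leading copy, Manes.15G098800, had 5.33, 5.39 and 4.51 FPKM in MS control leaves, 4.57, 4.59 and 4.70 in ABA leaves and 10.8, 10.7 and 11.3 in PEG leaves. It rose under PEG by 0.98 (SE 0.06, adjusted p = 7.31e-08) and had -0.07 under ABA (SE 0.07, adjusted p = 0.363). Manes.03G079000 fell by 0.39 under ABA (SE 0.12, adjusted p = 0.0117) and rose by 0.69 under PEG (SE 0.11, adjusted p = 0.000148). Manes.15G116000 rose under PEG by 2.75 (SE 0.40, adjusted p = 6.82e-05) on 15 and 125 reads, and its ABA rise of 1.34 (SE 0.50, adjusted p = 0.0323) was lost when MS control replicate 2 or 3 or ABA replicate 1 or 2 was left out (adjusted p up to 0.101). The fourth copy, Manes.17G062500, passed neither test, at -0.15 (adjusted p = 0.749) and -0.93 (adjusted p = 0.0575) on 24 to 38 reads per group, though the PEG value passed without PEG replicate 1 and with the replicate number as a block.

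One gene is described as a trehalose-6-phosphate phosphatase, the enzyme that removes the signal. Manes.14G017900, annotated with TPPB, had 4.54, 3.83 and 3.86 FPKM in MS control leaves, 6.20, 6.43 and 5.67 in ABA leaves and 2.18, 1.79 and 2.49 in PEG leaves. Its groups did not overlap, with a rise of 0.65 under ABA (SE 0.12, adjusted p = 0.000658) and a fall of 1.05 under PEG (SE 0.14, adjusted p = 3.04e-05).

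A last set of 10 genes carries a starch name in the description, while the nearest Arabidopsis genes are known for other work. The genes called glycogenin-like starch initiation proteins match the GUX enzymes, which add glucuronic acid to xylan of the cell wall, or PGSIP6, which glycosylates a membrane sphingolipid. Of the 8 tested genes of this set, 1 rose and 3 fell under ABA, and 1 rose and 3 fell under PEG. Manes.18G087900, annotated with GUX3, had 20.6, 20.3 and 20.5 FPKM in MS control leaves, 17.3, 15.8 and 16.7 in ABA leaves and 10.3, 9.23 and 9.55 in PEG leaves, and fell by 0.24 (SE 0.05, adjusted p = 0.00165) and by 1.21 (SE 0.05, adjusted p = 2.23e-09). The PGSIP6 gene Manes.08G141400 lay at 19.6, 18.7 and 18.2 FPKM in MS control leaves, 15.8, 16.1 and 17.0 in ABA leaves and 11.8, 12.3 and 12.7 in PEG leaves. Its fall under PEG of 0.75 (SE 0.05, adjusted p = 7.53e-08) was clear of the replicates, and that under ABA of 0.15 (SE 0.05, adjusted p = 0.0217) was lost without MS control replicate 1 (adjusted p = 0.0769), ABA replicate 1 (0.0758) or ABA replicate 2 (0.0658).

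The GUX4 gene Manes.08G121000 fell under PEG by 3.16 (SE 0.21, adjusted p = 6.25e-08), from 2.60, 2.95 and 3.43 FPKM to 0.345, 0.342 and 0.406. A second GUX4 gene, Manes.09G166700, was not tested, with 4 reads in MS control leaves, 0 in ABA leaves and 28 in PEG leaves, where a count of 0 allows up to 3 reads over the group. The GUX2 gene Manes.18G036700 rose under ABA by 0.81 (SE 0.21, adjusted p = 0.00472), below 0.62 FPKM in every library, and a second GUX2 gene, Manes.05G173600, was not tested, with 4 reads in the MS control group, 7 in the ABA group and 4 in the PEG group. The GUX1 gene Manes.12G153100 passed neither test, at 0.30 (adjusted p = 0.323) and 0.25 (adjusted p = 0.398). The 3 genes described as ADP-glucose pyrophosphorylase family proteins match KJC1, a protein of GDP-mannose synthesis for cell-wall mannans. Of these, Manes.06G100100 had 4.49, 4.50 and 5.03 FPKM in MS control leaves, 2.80, 3.36 and 3.36 in ABA leaves and 5.97, 6.94 and 6.82 in PEG leaves, and it fell by 0.49 (SE 0.11, adjusted p = 0.00187) and rose by 0.36 (SE 0.10, adjusted p = 0.00819). Manes.14G070700 passed neither test, at -0.12 (adjusted p = 0.33) and 0.12 (adjusted p = 0.30), nor did Manes.15G179700, at -0.03 (adjusted p = 0.853) and -0.07 (adjusted p = 0.61). Without the 10 genes of this set, 21 of 53 members rose and 14 fell under ABA, and 25 rose and 19 fell under PEG.

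Summed over members, transcript levels shifted between roles. All 65 members summed to 1620 to 1630 FPKM in MS control leaves, 2420 to 2470 in ABA leaves and 1440 to 1470 in PEG leaves. The β-amylases summed to 356 to 371 FPKM in MS control leaves, 1090 to 1110 in ABA leaves and 331 to 345 in PEG leaves, and the 2 BAM1 copies alone went from 129 to 138 FPKM in the MS control to 797 to 815 under ABA. The α-amylases had mean sums of 282 ± 0.91, 305 ± 4.15 and 144 ± 2.55 FPKM (SD, n = 3) in the same order of groups. The members of synthesis (ADP-glucose pyrophosphorylase, starch synthases, branching enzymes and isoamylases, ISA3 included) summed to 377 to 387 FPKM in MS control leaves, 344 to 357 in ABA leaves and 519 to 537 in PEG leaves. That sum leaves out synthesis genes outside the search terms. Among them, the APL3 gene Manes.11G085500 ran the other way, with means of 51.8, 81.6 and 25.6 FPKM in the same order of groups. The granule-bound synthase gene Manes.02G001000 had means of 17.2, 15.8 and 29.7. The order of groups in the synthesis sum therefore holds for the members only. Class II TPS genes summed to 403 to 408, 506 to 525 and 269 to 273 FPKM, and the TPS1 copies to 7.54 to 8.40, 6.72 to 7.21 and 15.7 to 16.9. Such sums are led by the most abundant genes, and the exact permutation test of 3 libraries against 3 cannot go below p = 0.1, so they are given as levels.

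**Figure D4:**
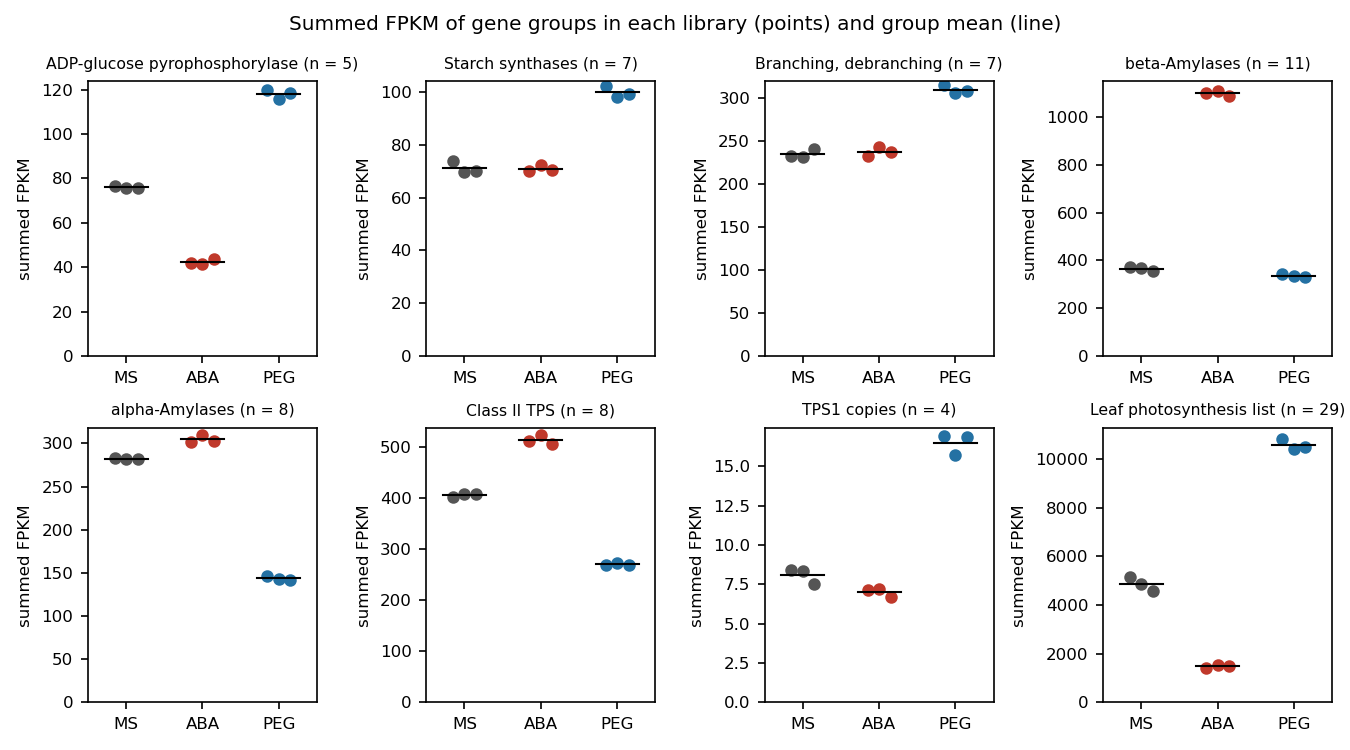
Summed FPKM of 7 groups of members and of the leaf photosynthesis list in each library (points), with the group mean as a line. The β-amylase sum is highest under ABA (1090 to 1110), and the sums of ADP-glucose pyrophosphorylase (116 to 120), TPS1 copies (15.7 to 16.9) and leaf photosynthesis genes (10400 to 10800) are highest under PEG.

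The treatments were also compared directly. From ABA to PEG, 23 of the 61 members rose and 24 fell, against 39.1% and 35.6% of all genes tested, and 12 rose and 12 fell at least 2-fold, against 16.0% and 12.9%. The median absolute log2 fold change of the members was 0.90 from ABA to PEG, and 0.54 over all genes tested. Against the MS control it was 0.30 under ABA and 0.62 under PEG, where all genes had 0.41 and 0.45. PEG stood above ABA most for the BAM3 copy Manes.15G171200 (log2 fold change 3.67, SE 0.07, adjusted p = 3.86e-13), the APS1 copy Manes.13G058900 (3.19, SE 0.15, adjusted p = 1.83e-09) and the BAM5 gene Manes.12G078500 (3.03, SE 0.26, adjusted p = 6.16e-07). The BAM5 value rests on 20 reads under ABA and 208 under PEG. The APL1 copy Manes.03G182100 came next (2.75, SE 0.08, adjusted p = 3.15e-11). PEG stood below ABA most for the BAM1 copy Manes.03G155800 (-3.60, SE 0.03, adjusted p = 1.27e-15), the GUX4 gene Manes.08G121000 (-3.43, SE 0.20, adjusted p = 1.59e-08) and the AMY1 copy Manes.18G037100 (-3.18, SE 0.06, adjusted p = 4.69e-13). By role, 12 of 18 tested genes of synthesis were higher under PEG and 3 lower, 3 of 11 β-amylases were higher and 4 lower, and 1 of 8 class II TPS genes was higher and 6 lower, while 3 of 4 TPS1 copies were higher. Without scaling beyond library size the median of all genes went from 0.05 to 0.24, the share of rises among calls from 52.4% to 65.3%, and the members counted 29 risen and 21 fallen.

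**Figure D5:**
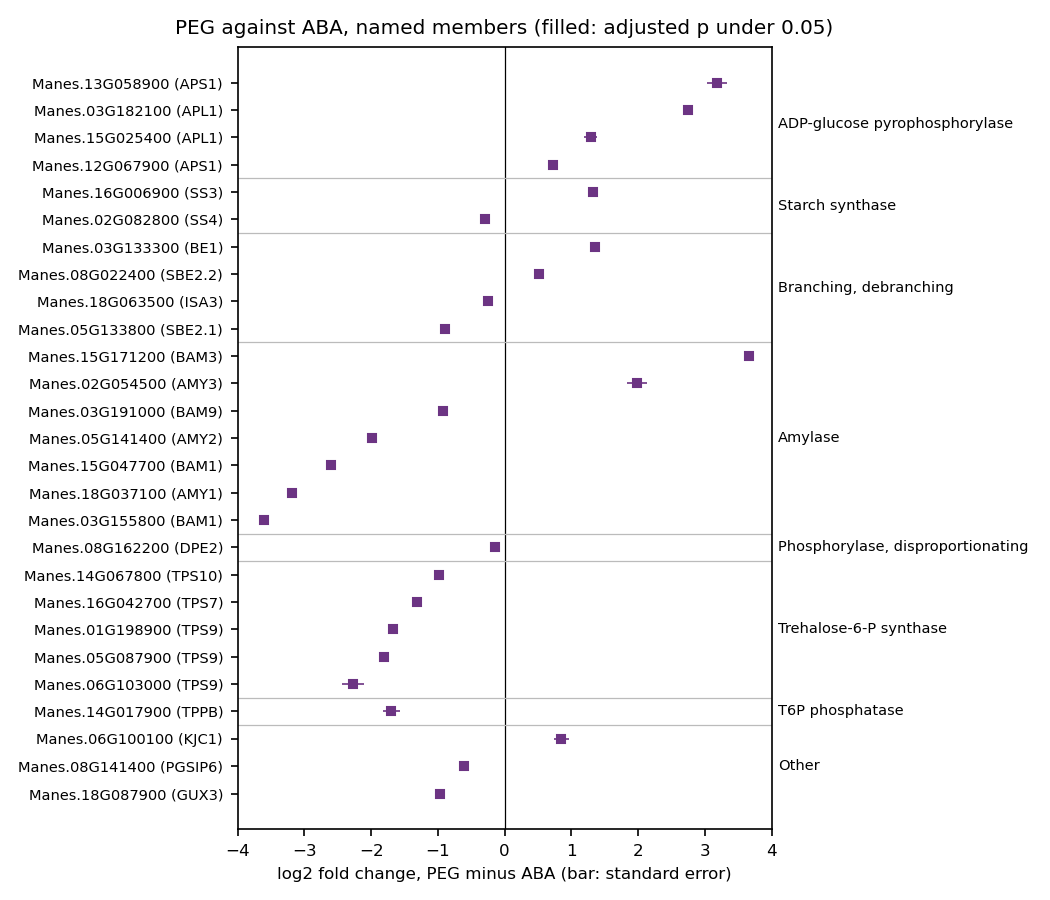
Log2 fold change from ABA to PEG for the 27 members named by rule, grouped by role. Bars are standard errors and filled squares passed the test. The 4 ADP-glucose pyrophosphorylase genes lie at 0.72 to 3.19, the BAM3 copy at 3.67 and the BAM1 copies at -2.60 and -3.60.

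Copies with the same nearest Arabidopsis gene did not always move together. Of 16 Arabidopsis genes with 2 or more tested cassava copies, all copies changed in the same direction in 5 under ABA and in 6 under PEG, and copies were called in opposite directions in 4 under ABA and 3 under PEG. Over all genes tested, 32.9% rose and 33.4% fell under ABA, and 35.6% rose and 35.1% fell under PEG. At such shares, unrelated genes would also often be called alike or apart. Whether copies differ from unrelated genes in this was not tested. Of the 6 under PEG, those of APS1 and SS3 rest on Manes.12G067900 and Manes.S044400, whose calls were lost in alternatives given above. Under ABA the opposite calls were those of BAM3, SS2, AMY1 and TPS1, of which the BAM3 and TPS1 ones rest on calls lost in alternatives given above. Under PEG they were those of AMY3, TPS6 and SS4, the last resting on the SS4 call given above as unstable.

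Other genes were listed for starch and trehalose metabolism by their Arabidopsis identity or by further description terms. Of these 35 genes, 34 were tested, 14 rose and 10 fell under ABA and 14 rose and 11 fell under PEG. The shares over all genes tested were 32.9% risen and 33.4% fallen under ABA, and 35.6% and 35.1% under PEG. The description terms also caught 3 genes of other work, Manes.03G006700 (an RNA lariat debranching enzyme in Arabidopsis) and Manes.07G120300 and Manes.10G025000 (GDP-mannose pyrophosphorylase). Without them 31 were tested, 13 rose and 10 fell under ABA and 11 rose and 11 fell under PEG. TRE1 is the trehalase that splits trehalose to glucose. Its more abundant copy, Manes.02G005400, had 33.6, 33.7 and 32.6 FPKM in MS control leaves, 9.33, 8.65 and 8.13 in ABA leaves and 17.9, 18.2 and 18.7 in PEG leaves, with log2 fold changes of -1.87 (SE 0.05, adjusted p = 6.62e-11) and -1.0 (SE 0.05, adjusted p = 8.29e-09). The other copy, Manes.01G053600, had -0.05 under ABA (SE 0.15, adjusted p = 0.786) and fell under PEG by 0.64 (SE 0.15, adjusted p = 0.00305), at 3.89 ± 0.44 FPKM in the MS control (SD, n = 3). ESV1 is a starch-binding protein that protects granules from early breakdown in Arabidopsis. Its more abundant copy, Manes.05G134900, held 86.8, 84.3 and 87.4 FPKM in MS control leaves, 197, 198 and 204 in ABA leaves and 76.8, 75.6 and 77.2 in PEG leaves, changing by 1.27 (SE 0.03, adjusted p = 7.14e-12) and -0.30 (SE 0.03, adjusted p = 1.25e-06). The other copy, Manes.18G005900, rose under ABA by 1.61 (SE 0.36, adjusted p = 0.00207) and under PEG by 2.54 (SE 0.32, adjusted p = 1.95e-05), on 29 reads in the MS control, 86 in the ABA and 207 in the PEG group. The LESV gene Manes.03G171500, a relative of ESV1, rose by 1.43 under ABA (SE 0.09, adjusted p = 4.95e-08), from 4.21, 4.21 and 3.49 FPKM to 9.99, 10.8 and 9.93, and by 0.62 under PEG (SE 0.09, adjusted p = 6.76e-05). Below 10 FPKM, 2 genes of the glucose-6-phosphate/phosphate translocator GPT2 fell at least 2-fold under both treatments. Manes.17G036800 had -2.06 under ABA (SE 0.16, adjusted p = 3.73e-07) and -1.98 under PEG (SE 0.15, adjusted p = 2.83e-07). Manes.16G010700 had -1.06 (SE 0.1, adjusted p = 1.68e-06) and -1.29 (SE 0.1, adjusted p = 2.14e-07).

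Manes.11G085500, described as a glucose-1-phosphate adenylyltransferase and annotated with APL3, an ADP-glucose pyrophosphorylase large subunit more typical of sink tissue in Arabidopsis, took the reverse order of the 4 pyrophosphorylase genes above. It had 51.7, 51.4 and 52.4 FPKM in MS control leaves, 81.9, 82.5 and 80.4 in ABA leaves and 26.3, 25.0 and 25.5 in PEG leaves, with a rise of 0.72 (SE 0.03, adjusted p = 6.45e-10) and a fall of 1.15 (SE 0.03, adjusted p = 1.13e-11). The 2 APL1 copies together had less, at 19.3 to 22.3 FPKM for the MS control and 8.74 to 9.71 for ABA, and more under PEG, at 50.0 to 52.7. PTST (Manes.02G075700), which brings granule-bound synthase to starch in Arabidopsis, rose under PEG by 1.12 (SE 0.07, adjusted p = 5.97e-08), from 8.61, 7.57 and 8.42 FPKM to 18.6, 20.3 and 19.9, and had -0.05 under ABA (adjusted p = 0.574). The plastid maltose exporter MEX1 (Manes.08G159200) went from 19.3, 17.0 and 18.1 FPKM to 8.04, 9.30 and 8.83 under ABA and 32.0, 30.0 and 34.7 under PEG. Its log2 fold changes were -0.99 (SE 0.07, adjusted p = 3.04e-07) and 0.70 (SE 0.07, adjusted p = 2.87e-06), with the groups apart. A second MEX1 copy, Manes.09G130400, had 0.22 under ABA (SE 0.09, adjusted p = 0.0508) and rose under PEG by 0.74 (SE 0.09, adjusted p = 1.52e-05). The glucan, water dikinase GWD1 (Manes.13G026800), which phosphorylates starch at the start of breakdown, fell by 0.23 under ABA (SE 0.02, adjusted p = 3.14e-06) and had 0.0 under PEG (SE 0.02, adjusted p = 0.939). That 0.0 depends on the TMM scaling, since its FPKM was 78.2, 79.3 and 79.2 in the MS control and 86.1, 86.5 and 86.6 under PEG, without overlap. The phosphoglucan dikinase PWD (Manes.05G194300) rose by 0.47 under ABA (SE 0.03, adjusted p = 4.42e-08) and fell by 0.29 under PEG (SE 0.03, adjusted p = 2.3e-06).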

How the data were processed

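RNA-seq libraries of cassava leaves (3 each for MS control, ABA and PEG) were analysed from 1 deposited table of 33033 genes. The authors deposited read counts per gene and FPKM values, made per library. HISAT2 2.0.4 and StringTie 1.3.0 are listed in the submitters' processing notes, with no role. For the program that counted reads, its strand setting and the formula of FPKM, nothing is stated in the sources used here. Genes on opposite strands that overlap can therefore share reads. Coordinates are those of the table, and cassava genome v6.1 is the version the study names. Total counts were 13923803 to 17108746 per library, and no 2 replicates of a group agreed within sampling noise. The median chi-square over genes between replicates was 0.663 to 0.836, above the median of a chi-square with 1 degree of freedom, which sampling noise alone would give. Pairs from different groups were not compared in this way.

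Counts were tested in R 4.3.3 with edgeR 4.0.16 (limma 3.58.1) by the quasi-likelihood test, after filterByExpr (23984 genes kept) and TMM scaling, in 1 fit of 9 libraries with no block, with Benjamini-Hochberg adjustment over all genes kept and a threshold of 0.05. The fit on all genes replaced the one-way comparison of FPKM that the study used. Values in every library are given for the most abundant member of each role, for members changed at least 2-fold with a group mean of 10 FPKM or more, and for members of at least 5 FPKM called in opposite directions by the comparisons with the MS control, 27 in all. Pathway genes are given by values where they changed at least 2-fold at 10 FPKM or more. GWD1, PWD, Manes.15G039800 and other genes named outside this rule were chosen after their values were seen. Members and lists were chosen with earlier results of these data known.

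Alternatives were DESeq2 1.42.0 size factors and its Wald test, no scaling beyond library size, other filters on low values, a replicate block, fits of only the compared groups, each library left out, a fold of at least 2, and, added after seeing the data, leaving out MS control replicate 1 and PEG replicate 1, in which Manes.15G039800 was low. Whether replicate numbers pair the samples was not settled, and the main fit treated the libraries as unpaired.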

Additional observations from a re-analysis of the deposited data

How the results depend on the processing

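Counts of called members stayed within 1.5 times of the main ones except where a fold of at least 2 was also asked, when 5 rose and 4 fell under ABA, 4 rose and 8 fell under PEG, and 12 rose and 12 fell from ABA to PEG. With each library left out in turn, 20 to 22 rose and 16 to 19 fell under ABA, 23 to 26 rose and 21 to 23 fell under PEG, and 23 to 24 rose and 24 to 25 fell from ABA to PEG. Without scaling beyond library size, log2 fold changes under PEG turned to 0.02 for Manes.02G082800, 0.06 for Manes.08G162200 and 0.07 for Manes.18G063500, and that of Manes.08G162200 from ABA to PEG to 0.05. This scaling omits a correction of all values of a library, which by construction shifts small changes. Same-numbered libraries deviated with correlations of -0.04 to 0.07. Between MS control and PEG the same-numbered pairs had 0.068, 0.031 and 0.037, and the other pairs had -0.049 to 0.011. Same-numbered pairs with an ABA library had -0.038 to -0.005. These values are small and differ between groups, so they do not settle whether the numbers pair the samples. The fit with the replicate block gave 21 risen and 17 fallen under ABA, 26 and 23 under PEG, and 24 and 24 from ABA to PEG. Of 1377 values of the named genes under alternatives, 1350 kept their direction and side of the threshold, 19 lost the threshold, 4 passed it newly and 4 turned direction. Members with few reads (SS2 copy Manes.01G091700, the TPS1 copies Manes.15G116000 and Manes.17G062500, SS3 copy Manes.S044400) limit what can be called at this depth.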

Other observations

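Some enzymes of these pathways have general descriptions and were found by their nearest Arabidopsis gene only after the table had been seen, namely the plastid phosphorylase PHS1, the granule-bound synthase GBSS1 and further trehalose-6-phosphate phosphatases. Of 20 such genes, 16 were tested, and 13 rose and 2 fell under ABA, and 7 rose and 3 fell under PEG. Among all genes tested, 32.9% rose and 33.4% fell under ABA, and 35.6% rose and 35.1% fell under PEG. Many of the 20 are PHS1 genes, some of them neighbours on chromosome 2 and some below 1 FPKM, so the counts lean on that family. The PHS1 gene Manes.05G108500 had 21.0, 19.3 and 21.4 FPKM in MS control leaves, 7.81, 7.60 and 7.16 in ABA leaves and 43.0, 42.6 and 42.0 in PEG leaves, with log2 fold changes of -1.39 (SE 0.05, adjusted p = 3.65e-10) and 0.92 (SE 0.05, adjusted p = 6.79e-09) by edgeR's quasi-likelihood test. Other PHS1 genes in the table, among them a cluster on chromosome 2 where reads may be shared between copies, went otherwise. Manes.S110800 rose under ABA by 0.38 (SE 0.06, adjusted p = 0.000117) and fell under PEG by 0.81 (SE 0.06, adjusted p = 1.92e-07), and Manes.02G052600 rose under ABA by 0.93 (SE 0.09, adjusted p = 3.93e-06) with -0.07 under PEG (adjusted p = 0.541).

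The GBSS1 gene Manes.02G001000, which makes amylose, rose under PEG by 0.66 (SE 0.04, adjusted p = 3.36e-08) from 17.8, 17.2 and 16.6 FPKM to 28.8, 30.3 and 30.0, and had -0.06 under ABA (adjusted p = 0.229). Phosphatase genes annotated with TPPA rose under both treatments, while the further phosphatases differed between genes. Manes.14G035300 went from 9.61, 10 and 11.1 FPKM to 19.9, 18.5 and 19.0 under ABA and 15.6, 13.7 and 15.6 under PEG, with 0.96 (SE 0.07, adjusted p = 2.16e-07) and 0.41 (SE 0.07, adjusted p = 0.000256). Manes.06G135400 rose by 2.52 under ABA (SE 0.24, adjusted p = 2.06e-06) and 0.85 under PEG (SE 0.28, adjusted p = 0.0164), on 45 reads in the MS control, 249 in the ABA and 98 in the PEG group. The TPPJ gene Manes.12G136700 fell under ABA, with -0.71 (SE 0.09, adjusted p = 2.11e-05), and had 0.01 under PEG (adjusted p = 0.91). The TPPG gene Manes.02G036000 rose under ABA by 0.67 (SE 0.1, adjusted p = 7.95e-05) and had -0.05 under PEG (adjusted p = 0.657). At no more than 1.66 FPKM in any library, Manes.13G093200 (TPPJ) and Manes.02G154100 (TPPD) rose under both, by 0.98 and 0.99 under ABA and 0.78 and 1.52 under PEG. These genes were chosen by their nearest Arabidopsis gene after their values could be seen, and only some of them are described singly.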
